A study of Mus musculus with 4 samples.

Results

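DNA damage signalling and repair were read through 43 named genes, taken from a list of names by the role of their proteins: 6 checkpoint kinases and mediators, 9 genes of homologous recombination, the 3 genes of the MRN complex, 2 RecQ helicases, 8 Fanconi anaemia genes, 5 genes of end joining, 3 of mismatch repair, 4 of base excision and single-strand break repair and 3 of nucleotide excision repair. Of these 43, 41 had at least 1 probe set to which the platform annotation gives a single gene symbol, and 81 probe sets served them, out of 13320 genes named in this way. Bard1 and Xrcc2 were not analysed here.

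The samples were 4 cerebellar tumors of mice, all of genotype Chd7-het on a mixed CD1xC57BL/6 background, each hybridised to its own array and called tumors 1, 2, 4 and 5 after the sample titles. Chd7 encodes a chromatin remodeller, and every tumor carried the same genotype, so no effect of it could be measured. The labels used here do not give the allele that started the tumors, the age of the mice or the cells in which any transgene or recombinase was active. The values were log2 signals of Affymetrix mouse probe sets, that is, of groups of short oligonucleotides that report 1 transcript or a few.

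Broken or damaged DNA is sensed by the kinases ATM and ATR, which act through CHK2 and CHK1 to hold the cell cycle while repair takes place. Breaks met during or after replication are mended from the sister chromatid by homologous recombination, and interstrand crosslinks by the Fanconi pathway, whereas end joining, excision repair and single-strand break repair also serve cells that no longer divide. In the cerebellum these pathways protect granule cell progenitors, which divide rapidly after birth, and inherited defects in several of them lead to cerebellar degeneration or predispose to medulloblastoma.

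A common floor of 5.12 on the log2 scale (34.8 linear) was set for low signals, and a gene was tested when its mean over the tumors reached 5.87 (58.5 linear), which left 8498 genes, each read by its brightest probe set. Each tumor was set against the other 3 with limma, and a call needed both a change of at least 2-fold and an adjusted p (Benjamini-Hochberg, over all these genes) under 0.05. A single tumor is assumed to vary as the others do, and the p-values measure only the spread between these tumors. The share of probe sets above the floor was 59.1% to 61.3% per array, and the Gapdh control ratio, a sign of RNA integrity, lay between 0.686 and 0.757. Tumor 1 stood apart from the rest over the whole array, with 110 genes called, and results that rest on it are given with and without it. Of 12 markers of granule cell progenitors and SHH tumors, 0 lay at or below the floor in all tumors. In bulk tissue, fewer cells of a type and less RNA per cell cannot be told apart.

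Of the 41 genes with a probe set, 33 reached the filter, where 8498 of all 13320 genes did. All 33 lay above the floor in every tumor, as did 8464 of the 8498. The other 8 were Rad52, Xrcc3, Wrn, Fancb, Fancd2, Fancg, Fancm and Xpc. By role, out of the genes with a probe set, the 33 were 6 of 6 checkpoint genes, 5 of 7 recombination genes and 3 of 3 MRN genes. They further held 1 of 2 RecQ helicases, 4 of 8 Fanconi genes and 5 of 5 end joining genes. The rest were 3 of 3 mismatch genes, 4 of 4 base excision genes and 2 of 3 nucleotide excision genes.

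**Figure D1:**
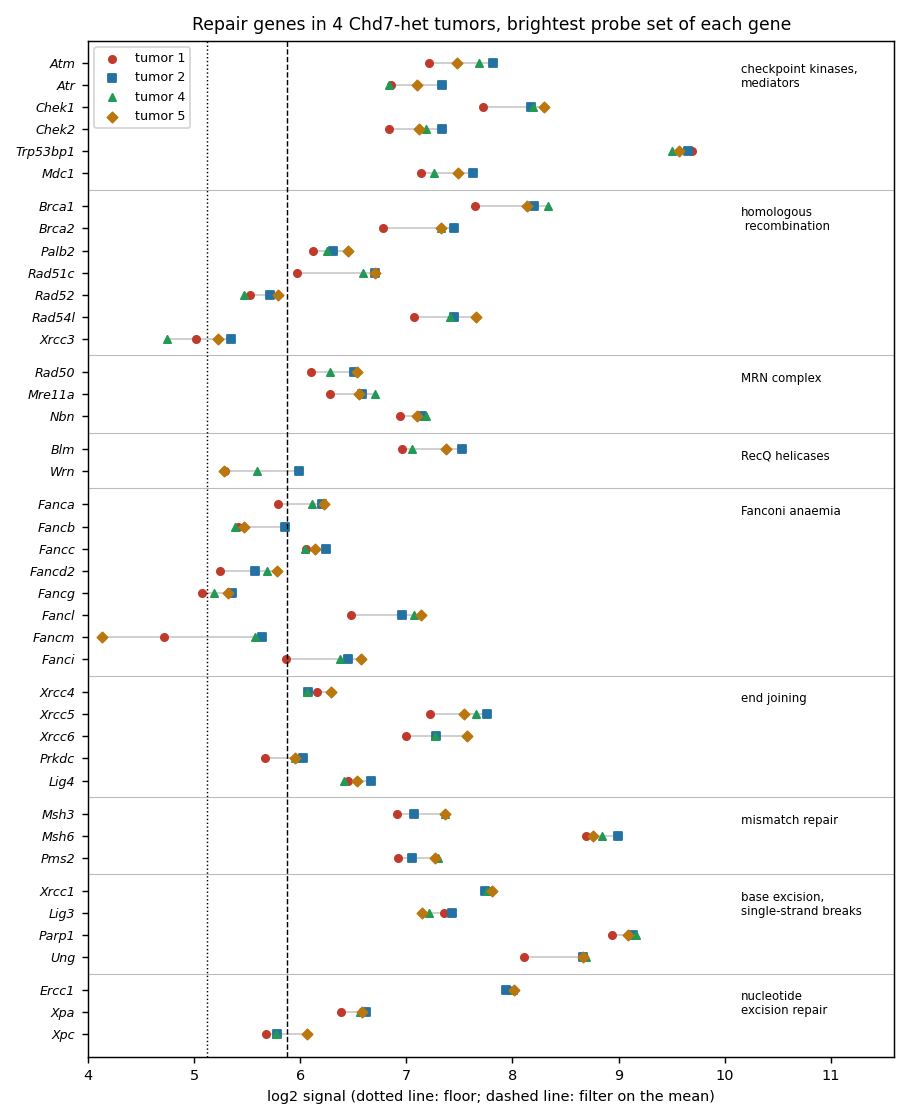
Log2 signal of the brightest probe set of 41 repair genes (x axis) in tumors 1, 2, 4 and 5 (points), grouped by role, with the floor at 5.12 (dotted) and the filter at 5.87 (dashed). Tumor 1 is the leftmost point for 28 of the 41 genes, and positions of different genes on the axis are not comparable since each probe set has its own brightness.

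Tumor 1 had the lowest signal for most repair genes, by modest amounts, and none of them was called. Its signal lay below that of each other tumor in 25 of 33 genes (75.8%), against 31.3% of all genes tested, and above each other tumor in 1, Trp53bp1 (3.03%, against 23.4% of all genes). The median difference between tumor 1 and the mean of the other 3 was -0.33 over the 33 genes and -0.036 over all 8498. The largest was that of Rad51c, at -0.70 or 1.63-fold, so no repair gene reached the 2-fold limit. With limma, 0 of the 33 were called higher in tumor 1 (1.05% of all genes) and 0 lower (0.247% of all genes), while 8 had an unadjusted p under 0.05 (11.2% of all genes). Without the filter on the mean, tumor 1 was lowest in 28 of 41 genes, against 27.7% of all genes.

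**Figure D2:**
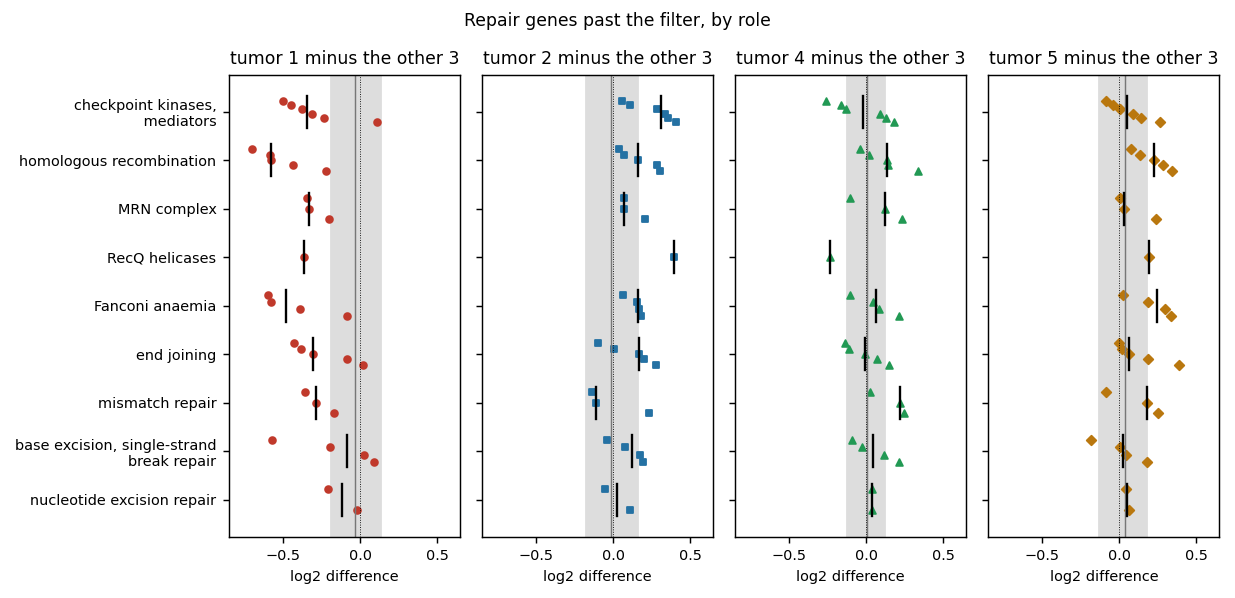
Log2 difference between 1 tumor and the mean of the other 3 (x axis) for the 33 repair genes past the filter, by role (y axis), with 1 panel per tumor. Points are genes, black bars the median of a role, the grey band runs from the 25th to the 75th percentile of all 8498 genes and the grey line is their median; in tumor 1, the medians of homologous recombination (-0.58) and Fanconi genes (-0.48) lie farthest to the left.

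The size of the difference varied with the role. In tumor 1 the median was -0.58 over 5 recombination genes, -0.48 over 4 Fanconi genes, -0.35 over 6 checkpoint genes, -0.33 over 3 MRN genes, -0.30 over 5 end joining genes and -0.28 over 3 mismatch genes. It was -0.085 over 4 genes of base excision and single-strand break repair and -0.12 over 2 of nucleotide excision repair. Differences between roles were not tested.

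Markers of other cell types and genes of cell division set tumor 1 apart as well. Of 19 measured S phase genes, tumor 1 was lowest in 18, and their summed linear signal was 13389 in tumor 1 and between 16504 and 18687 in the others, with Tyms below the floor in all tumors. Of 19 genes of G2 and M phase it was lowest in 19, with a sum of 10381 against 13591 to 14810. Mcm2, a subunit of the replicative helicase, read 8.73, 9.26, 9.59 and 9.63 in tumors 1, 2, 4 and 5. Tumor 1 was highest in 8 of 8 markers of Purkinje cells and inhibitory neurons (summed signal 3895, against 286.4 to 562.9, with Gad2 below the floor throughout), in 10 of 10 of mature neurons (6786, against 2752 to 3058, with Grin2c and Slc17a7 below the floor) and in 7 of 7 of oligodendrocytes (5339, against 745.9 to 1615). The part of dividing, neuronal and myelinating cells in the repair gene differences was not tested.

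**Figure D3:**
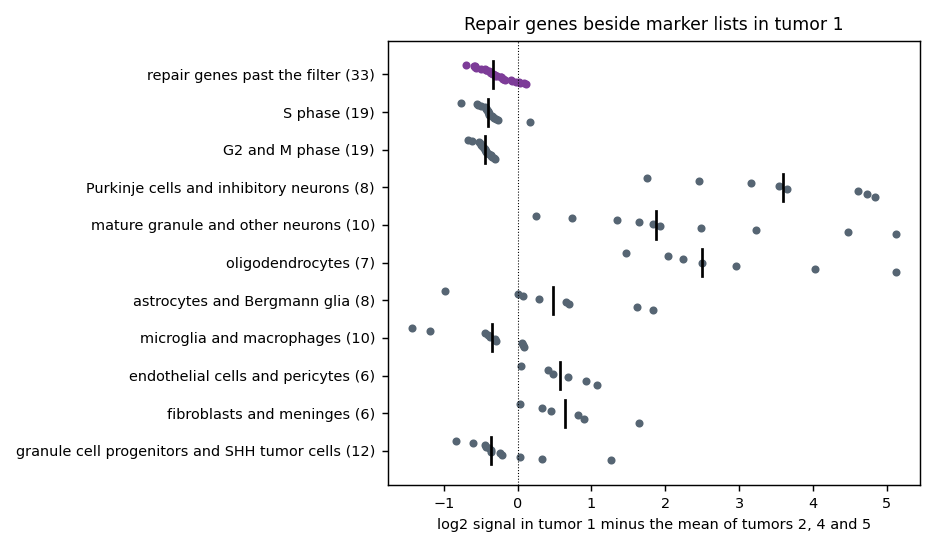
Log2 signal in tumor 1 minus the mean of tumors 2, 4 and 5 (x axis) for the 33 repair genes and for marker lists (y axis, number of genes in brackets), with points for genes and black bars for medians. The repair genes (median -0.33) lie beside the S phase (-0.40) and G2 and M phase genes (-0.44), while neuronal and oligodendrocyte genes lie to the right of 0. Marker signals were not raised to the floor, so genes below it in some tumors can lie farther from 0. Slc32a1, at 0 in tumors 2 and 5, lies at 4.85.

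The remaining lists were less uniform. Tumor 1 was highest in 5 of 8 markers of astrocytes and Bergmann glia (summed signal 6004, against 4225 to 4954), in 4 of 6 of endothelial cells and pericytes (862.5, against 393.2 to 528.9, with Cdh5, Kdr and Tek below the floor) and in 4 of 6 of fibroblasts and meninges (850.6, against 446.1 to 701.7, with Col1a1 below the floor). It was lowest in 6 of 10 markers of microglia and macrophages (3335, against 4093 to 5929, with Itgam below the floor) and in 9 of 12 of granule cell progenitors and SHH tumors (15315, against 16994 to 18679). In the last list it was highest in 2, Pax6 (difference 1.26) and Zic2 (0.33). The part of these lists in the result was not tested either.

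Letters that the choice of names did not use were counted in the promoters of the repair genes. RefSeq promoter windows on GRCm38.p6, from 250 bases before to 50 after the annotated start, were found for 36 of the 43 genes (39 windows). E2F factors, which switch on genes of S phase, bind sequences such as TTTCGCGC or TTTGGCGC or TTTCCCGC or GGCGGGAA, and these letters, searched on both strands, occurred in 13 of the 39 windows (33.3%), against 3.49% of all 32851 windows and 4.52% of the 21263 windows of protein-coding genes. These variants can overlap each other and the letters GGGCGG of SP factors, which occurred in 71.8% of the repair windows, 35.7% of all windows and 46.2% of those of protein-coding genes. The letters CCAAT of NF-Y occurred in 51.3%, against 37.4% of all and 38.2% of protein-coding windows. The letters TTTGAA, the CHR element of mitotic genes, occurred in 2.56%, against 17.9% of all windows and 3400 of the 21263 of protein-coding genes. A match is a description of letters, not a bound site. The sets of windows were not matched for base composition.

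Of the 30 tested repair genes with a window, 8 held an E2F sequence, and tumor 1 was lowest in 8 of these 8 (median difference -0.38) and in 14 of the 22 without one (median -0.26). Over all genes tested that had a window, tumor 1 was lowest in 44.4% of the 577 with these letters (median -0.11) and in 30.0% of the 6421 without (median -0.029). By role, 3 of 6 checkpoint windows, 4 of 10 recombination windows, 3 of 7 Fanconi windows, 2 of 3 mismatch windows and 1 of 5 end joining windows held the letters, while 0 of 4 base excision windows, 0 of 2 nucleotide excision windows and the single MRN and RecQ windows held none. Rad51c, Rad54l and Lig4 entered these counts with more than 1 window each, and each Rad51c window held the letters. Membership of these small groups was fixed by role and was not tested. The other letters were split in the same way. Tumor 1 was lowest in 14 of 16 repair genes with CCAAT and in 8 of 14 without, and in 32.6% and 30.0% of all genes. With GGGCGG it was lowest in 15 of 21 repair genes and without in 7 of 9, and in 31.3% and 30.9% of all genes. No tested repair gene held TTTGAA, and over all genes tumor 1 was lowest in 39.8% with it and 29.7% without.

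Windows of 5 genes are shown, with E2F letters in capitals: Rad51c, Brca2 and Chek1 show where a match lies, Ung holds none, and Ercc1, which barely differed between the tumors, holds none. Of the 7 genes with the largest differences in tumor 1, Rad51c, Brca2 and Chek1 held a match, and Fanci (-0.60), Fancl (-0.58), Brca1 (-0.58) and Ung (-0.57) did not. They lie at chr11:87404457-87404756 (Rad51c, minus strand), chr5:150522371-150522670 (Brca2, plus strand), chr9:36726609-36726908 (Chek1, minus strand), chr5:114130185-114130484 (Ung, plus strand) and chr7:19344821-19345120 (Ercc1, plus strand) on GRCm38.p6, each read 5′ to 3′ on the strand of its gene.
Rad51c: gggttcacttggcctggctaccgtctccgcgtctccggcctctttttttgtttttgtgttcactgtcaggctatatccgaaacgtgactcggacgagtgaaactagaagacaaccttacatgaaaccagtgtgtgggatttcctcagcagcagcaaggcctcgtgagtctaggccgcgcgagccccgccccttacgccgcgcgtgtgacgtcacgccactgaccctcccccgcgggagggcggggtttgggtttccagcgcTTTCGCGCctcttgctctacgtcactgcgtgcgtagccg
Brca2: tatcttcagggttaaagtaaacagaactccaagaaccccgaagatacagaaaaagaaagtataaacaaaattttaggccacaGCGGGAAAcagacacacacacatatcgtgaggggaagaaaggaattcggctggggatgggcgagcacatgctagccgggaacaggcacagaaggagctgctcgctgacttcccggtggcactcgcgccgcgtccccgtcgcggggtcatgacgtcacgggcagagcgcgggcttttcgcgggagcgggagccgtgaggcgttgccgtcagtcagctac
Chek1: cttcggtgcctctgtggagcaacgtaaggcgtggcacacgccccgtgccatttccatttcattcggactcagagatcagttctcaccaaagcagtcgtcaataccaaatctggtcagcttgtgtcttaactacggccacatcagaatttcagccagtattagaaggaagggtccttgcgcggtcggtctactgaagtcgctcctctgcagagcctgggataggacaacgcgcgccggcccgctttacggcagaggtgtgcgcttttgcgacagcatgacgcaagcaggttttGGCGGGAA
Ung: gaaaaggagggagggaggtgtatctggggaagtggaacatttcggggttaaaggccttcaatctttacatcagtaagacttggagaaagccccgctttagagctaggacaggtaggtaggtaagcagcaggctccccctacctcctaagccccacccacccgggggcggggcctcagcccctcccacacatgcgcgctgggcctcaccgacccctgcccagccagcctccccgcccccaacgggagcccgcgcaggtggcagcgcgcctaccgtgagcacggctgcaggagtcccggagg
Ercc1: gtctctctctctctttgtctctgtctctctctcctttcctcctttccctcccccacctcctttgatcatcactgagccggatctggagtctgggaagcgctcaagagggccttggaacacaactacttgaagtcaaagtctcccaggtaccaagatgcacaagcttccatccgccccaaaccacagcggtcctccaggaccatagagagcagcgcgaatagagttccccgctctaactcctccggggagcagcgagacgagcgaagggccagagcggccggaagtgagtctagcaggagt
In Rad51c the match begins 12 bases into the transcribed part, in Chek1 it is at the very end of the window, and in Brca2 it lies 168 bases before the start. A further Rad51c window at chr11:87404905-87405204 also held the letters.

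Among the checkpoint genes, the kinases read lower in tumor 1 and the mediator Trp53bp1 did not. Atm, the kinase activated by double-strand breaks, read 7.21, 7.82, 7.68 and 7.48 in tumors 1, 2, 4 and 5, so tumor 1 lay below the rest and tumor 2 was highest (difference of tumor 1 from the others -0.45, SE 0.20, adjusted p = 0.455). A second probe set gave 7.04, 7.69, 7.40 and 7.33, in the same order. Chek1, the kinase that ATR activates at stalled forks, read 7.72, 8.18, 8.19 and 8.30 (difference -0.50, SE 0.16, adjusted p = 0.252), with tumors 2, 4 and 5 close together.

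The probe sets of Chek1 agreed on tumor 1 and not on tumor 2. The brightest has the suffix _s_at, which marks oligonucleotides shared by transcripts, and the next brightest gave 7.49, 8.02, 7.77 and 7.83, with tumor 1 again lowest. In tumor 2 the differences from the other tumors ran from -0.14 to 0.32 over 3 probe sets. Chek2, the kinase downstream of ATM, differed by -0.38 in tumor 1 (adjusted p = 0.556) and Mdc1, the scaffold bound to marked chromatin at breaks, by -0.31 (adjusted p = 0.673). Both were lowest in tumor 1 and highest in tumor 2.

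Atr, the kinase activated by single-stranded DNA, followed another order. It read 6.86, 7.34, 6.83 and 7.10, with tumors 1 and 4 level and tumor 2 highest (tumor 2 against the others 0.41, adjusted p = 0.795). Trp53bp1, whose protein steers breaks toward end joining, read 9.69, 9.65, 9.51 and 9.57, the only tested repair gene highest in tumor 1 (difference 0.11, SE 0.16, adjusted p = 0.883). Its dimmer probe sets above the floor in all tumors also read above the mean of the others in tumor 1, by 0.38 and 0.35. In the dimmest of them tumor 2 was highest, at 6.33 against 6.18 in tumor 1. The differences of the 3 probe sets ran from -0.67 to 0.0043 in tumor 5 and from -0.094 to 0.55 in tumor 2.

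All 5 tested genes of homologous recombination were lowest in tumor 1. Rad51c, which acts in strand exchange, read 5.97, 6.70, 6.59 and 6.70, with tumors 2 and 5 at the same value and tumor 1 well below (difference -0.70, SE 0.21, adjusted p = 0.187). Its other probe set gave 6.04, 6.54, 6.43 and 6.73. Brca1, the ubiquitin ligase that promotes resection of breaks, read 7.65, 8.20, 8.33 and 8.14 (difference -0.58, SE 0.17, adjusted p = 0.190), tumor 4 being highest.

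Brca2, a mediator of strand exchange, read 6.78, 7.45, 7.33 and 7.32 (difference -0.58, SE 0.19, adjusted p = 0.247), so the 3 other tumors lay within 0.13 of each other. Rad54l, a motor protein of strand exchange, differed by -0.43 (adjusted p = 0.459), and its 3 probe sets lay between -0.54 and -0.43 in tumor 1. Palb2, the bridge between BRCA1 and BRCA2, varied least of the 5, at 6.12, 6.31, 6.25 and 6.45 (difference -0.22, adjusted p = 0.811). A dimmer probe set of Brca1 read 5.24, 6.07, 5.87 and 6.22, a larger gap of -0.81 near the floor.

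Rad52 and Xrcc3 did not reach the filter. The brighter probe set of Rad52, an annealing protein, read 5.53, 5.71, 5.47 and 5.79, with tumor 4 lowest and tumor 1 close to it. Its other probe set read 5.51, 5.53, 5.65 and 5.74, with tumor 1 lowest and tumor 2 close to it. Xrcc3, which acts late in recombination, read 5.02, 5.35, 4.74 and 5.22, at or near the floor, where the order of the tumors says little.

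The MRN complex, which grips broken ends and activates ATM, read lowest in tumor 1 for each of its 3 genes. Rad50, its structural ATPase, read 6.10, 6.51, 6.28 and 6.53 (difference -0.34, adjusted p = 0.656). Mre11a, its nuclease, read 6.28, 6.59, 6.71 and 6.55 (difference -0.33, adjusted p = 0.636). Nbn, the subunit that recruits ATM, had a range of 0.24 over the tumors, the smallest of the 3, at 6.94, 7.14, 7.18 and 7.10. Of the other tumors, tumor 4 was highest for Mre11a and Nbn and tumor 5 for Rad50.

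Of the RecQ helicases, Blm was tested and Wrn was not. Blm, which undoes crossed strands after recombination, read 6.96, 7.53, 7.05 and 7.37, so tumor 4 lay close to tumor 1 and the 2 others above (tumor 1 difference -0.36, SE 0.23, adjusted p = 0.647). Wrn, whose loss causes Werner syndrome in people, read 5.29, 5.99, 5.60 and 5.28, with tumors 1 and 5 level.

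Among the tested Fanconi genes, Fanci and Fancl had the largest differences between tumor 1 and the mean of the rest. Fanci, a subunit of the clamp that closes on damaged DNA, read 5.87, 6.45, 6.38 and 6.57 (difference -0.60, SE 0.21, adjusted p = 0.291). Fancl, the ubiquitin ligase that marks that clamp, read 6.48, 6.96, 7.07 and 7.13 (difference -0.58, SE 0.20, adjusted p = 0.276). Fanca, of the core complex, differed by -0.39 (adjusted p = 0.577). Fancc, of the same complex, had tumor 1 within the others, at 6.06, 6.25, 6.04 and 6.14.

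Near the floor, 4 Fanconi genes missed the filter. Fancd2, the partner of Fanci in the clamp, read 5.24, 5.58, 5.68 and 5.78 on its brightest probe set and 5.06, 5.60, 5.24 and 5.62 on the next, lowest in tumor 1 on both. Fancb read 5.41, 5.86, 5.38 and 5.47, with only tumor 2 apart, and Fancg read 5.07, 5.35, 5.19 and 5.32. Fancm, a DNA translocase, ranged more widely, at 4.71, 5.64, 5.57 and 4.13, with tumors 1 and 5 below the floor.

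Both Ku genes were lowest in tumor 1, and the ligase genes of end joining were not. Xrcc6, which encodes Ku70, read 6.99, 7.28, 7.27 and 7.57 (difference -0.38, adjusted p = 0.569), and tumor 5 was highest. Xrcc5, which encodes Ku80, read 7.23, 7.76, 7.66 and 7.55 (difference -0.43, adjusted p = 0.437), and tumor 2 was highest. Among the other 3, tumor 5 was thus the highest for Xrcc6 and the lowest for Xrcc5, the partners of 1 heterodimer.

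Prkdc, the DNA-dependent kinase recruited by Ku, differed by -0.30 in tumor 1 (adjusted p = 0.702). Lig4, the ligase of this pathway, differed by -0.086 (adjusted p = 0.941). Xrcc4, the scaffold of that ligase, read 6.16, 6.07, 6.06 and 6.29, with tumor 1 inside the range of the others (difference 0.019). The sign of that small difference turned with the scaling of the arrays.

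Mismatch repair genes were lowest in tumor 1 by small amounts. Msh3, which takes part in recognising larger loops, read 6.91, 7.08, 7.36 and 7.37 (difference -0.36, adjusted p = 0.608), with tumors 4 and 5 above tumors 1 and 2. Pms2, an endonuclease that acts after recognition, read 6.92, 7.05, 7.30 and 7.27 (difference -0.28, adjusted p = 0.704), in a like arrangement. Msh6, which takes part in recognising single mismatches, read 8.69, 8.995, 8.84 and 8.76 (difference -0.17, adjusted p = 0.807), with tumor 2 highest.

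Base excision and single-strand break repair held both the sharpest separation and the flattest profile among the 33 genes. Ung, the glycosylase that removes uracil from DNA, read 8.11 in tumor 1 and 8.66, 8.70 and 8.67 in tumors 2, 4 and 5. Tumor 1 lay 1.48-fold below the mean of the rest (difference -0.57, SE 0.15, adjusted p = 0.140), whose range was 0.032. This was the smallest adjusted p of the repair genes, and over the alternatives tried it lay between 0.0369 and 0.501, always under 2-fold. Xrcc1, the scaffold of single-strand break repair, read 7.80, 7.74, 7.76 and 7.81, a range of 0.064 that put it at percentile 0.683 of the SDs of all genes.

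Lig3, the ligase bound to that scaffold, read 7.35, 7.43, 7.22 and 7.15, with tumor 5 lowest and tumor 2 highest. Another probe set of Lig3 gave 6.31, 6.35, 6.27 and 6.57, with tumor 5 highest, so its order of the tumors is uncertain. Parp1, the sensor that marks breaks with ADP-ribose chains, was lowest in tumor 1 with a difference of -0.20 (adjusted p = 0.735). The next brightest probe set gave 8.86, 9.14, 8.94 and 8.96, with tumor 1 again lowest. A dimmer one gave 8.72, 8.87, 8.70 and 8.98, with tumor 4 lowest and tumor 1 close to it.

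Nucleotide excision repair genes differed little. Ercc1, a subunit of the nuclease that cuts beside a lesion, read 7.97, 7.94, 8.01 and 8.01, at percentile 1.04 of the SDs of all genes. Its second probe set read 7.88, 7.94, 7.99 and 7.75, with tumor 5 lowest. Xpa, which verifies the damage, read 6.38, 6.62, 6.57 and 6.58 (difference -0.21, adjusted p = 0.811), so tumor 1 lay below 3 close values. Xpc, the first sensor of this pathway, lay just under the filter with a mean of 5.83 and read 5.68, 5.78, 5.78 and 6.07. The gene just past the filter was Prkdc, with a mean of 5.90.

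Where a gene had several probe sets above the floor in all tumors, they mostly gave tumor 1 the same side. For 11 such genes, all probe sets of a gene agreed in sign in tumor 1 for 10, of which 8 were lower and 2, Trp53bp1 and Xrcc4, higher, and Lig3 was split between -0.089 and 0.088. In tumors 2, 4 and 5 they agreed for 6, 5 and 7 of the 11. The median gap between the probe sets of a gene was 0.10 in tumor 1 and 0.15, 0.15 and 0.23 in tumors 2, 4 and 5, close to the size of the differences there.

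**Figure D4:**
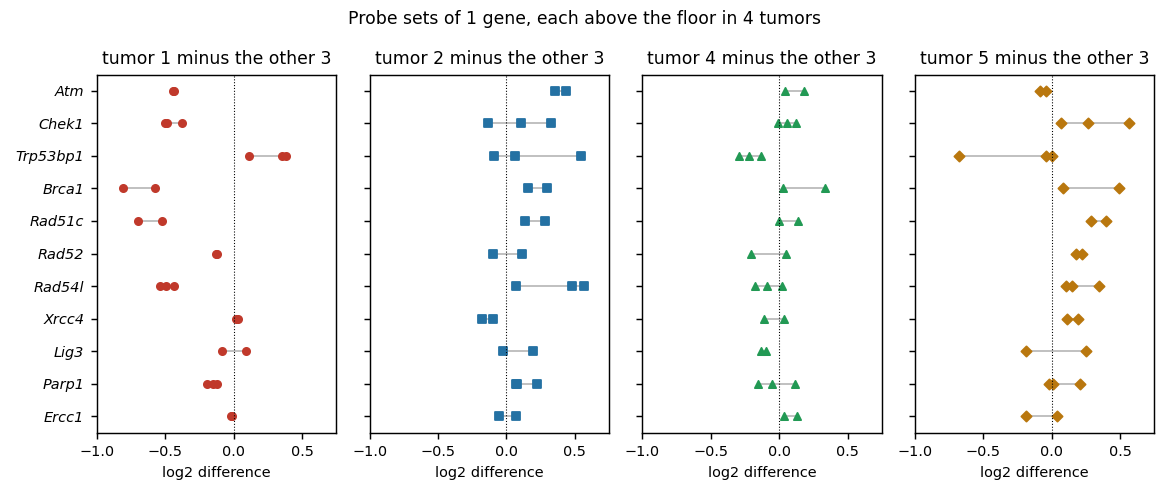
Log2 difference between 1 tumor and the mean of the other 3 (x axis) for every probe set above the floor in all tumors, for the 11 genes with more than 1 (y axis), with 1 panel per tumor and lines joining probe sets of a gene. In tumor 1 the probe sets of 8 genes all lie left of 0, and in the other tumors the lines cross 0 for 4 to 6 genes.

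Among tumors 2, 4 and 5 alone, most repair genes varied less than the median gene. The median SD of a gene was 0.21 over the 4 tumors for the 33 repair genes and 0.17 for all 8498 genes, and without tumor 1 it was 0.10 and 0.15. With tumor 1, 20 of the 33 had an SD above the median of all genes, and without it 6 did. These are descriptions of 4 arrays and were not tested.

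**Figure D5:**
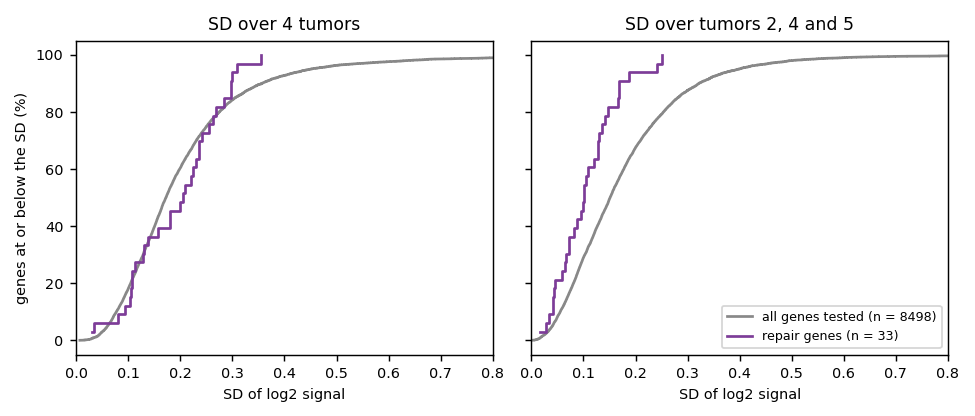
Share of genes (y axis, percent) with an SD of log2 signal at or below the value on the x axis, for the 33 repair genes and all 8498 genes tested, over the 4 tumors (left) and over tumors 2, 4 and 5 (right). With tumor 1 the repair genes lie mostly to the right of all genes (median SD 0.21 against 0.17), and without it to their left (0.10 against 0.15).

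In pairs of tumors, no repair gene differed by 2-fold or more. The share of all genes that did was 2.52%, 2.45% and 3.13% for tumor 1 against tumors 2, 4 and 5, 0.424% for tumors 2 and 4, 1.27% for tumors 2 and 5 and 0.459% for tumors 4 and 5. The widest gaps were those of Rad51c between tumors 1 and 2 and between tumors 1 and 5, both -0.74, and of Brca1 between tumors 1 and 4, at -0.68. Without tumor 1 they were smaller: 0.50 for Atr between tumors 2 and 4, 0.33 for Atm between tumors 2 and 5 and -0.32 for Blm between tumors 4 and 5.

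Tumor 2 was highest more often among the repair genes than among all genes, and tumors 4 and 5 lay nearer the share of all genes. Tumor 2 lay above each other tumor in 13 of 33 genes (39.4%, against 26.4% of all genes) and tumor 5 in 12 (36.4%, against 30.9%), while tumor 4 did in 6 (18.2%, against 19.1%). Tumors 2, 4 and 5 were lowest in 2, 5 and 1 genes, where 29.1%, 17.3% and 22.1% of all genes were. These counts are tied to tumor 1, which was highest in 3.03% of the repair genes (23.4% of all) and lowest in 75.8% (31.3%). That left more repair genes for the other tumors to be highest in and fewer to be lowest in. The counts are thus no result separate from that of tumor 1. With limma, 0 of the 33 and 0% of all genes were called in each of these 3 tumors, and an unadjusted p under 0.05 was reached by 0 of the 33 and by 496, 47 and 306 of all genes.

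The genes with the largest differences were not the same in each of these tumors. In tumor 2 Atr (0.41), Blm (0.40) and Atm (0.36) led, and the 6 checkpoint genes had a median of 0.31, while Msh3 (-0.14) and Pms2 (-0.11) read lower. In tumor 5 Xrcc6 (0.39), Rad54l (0.34) and Fanci (0.34) led, and in tumor 4 Brca1 (0.34) and Atr (-0.26). The contrasts share tumors, and tumor 1 is among those set against each. When tumor 1 was left out, 34 genes reached the filter, the medians shrank to 0.022, -0.052 and 0.027 in tumors 2, 4 and 5, and tumor 4 became the lowest in 16 of 34 genes, where 26.3% of all genes were.

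Dividing-cell lists differed among these tumors too. In tumor 2 the 19 tested genes of G2 and M phase had a median difference of 0.28 and the 18 of S phase one of 0.00037. In tumor 4 these medians were 0.11 and 0.17, and in tumor 5 0.085 and 0.26. The repair gene medians were 0.16, 0.042 and 0.091 in tumors 2, 4 and 5. The repair genes and the G2 and M phase genes had their highest median in tumor 2. The S phase genes had theirs in tumor 5. These contrasts share tumors, and the order of the medians was not tested. The part of dividing cells in the repair gene differences was not tested.

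A wider list of 109 other genes of the same pathways was read in the same way. Probe sets were found for 95, 65 reached the filter, and 0 were called in any tumor, while 15 of the 65 had an unadjusted p under 0.05 in tumor 1, as 11.2% of all genes did. Tumor 1 was lowest in 41 of the 65 and highest in 3, where 31.3% and 23.4% of all genes were. The median difference was -0.21, and -0.036 over all genes. The 12 further recombination and Fanconi genes had a median of -0.40 and the 11 of nucleotide excision repair -0.091. Tumor 5 was highest in 33 of the 65, where 30.9% of all genes were.

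The 5 genes of that list with the largest SD did not all follow the same order. Cdc25c, the phosphatase that opens mitosis, read 5.75, 6.70, 6.64 and 6.23 in tumors 1, 2, 4 and 5 (tumor 1 difference -0.77, adjusted p = 0.248). Eme1, a subunit of a structure-specific nuclease, read 6.10, 6.83, 6.81 and 6.71 (-0.68, adjusted p = 0.199), and Rad18, a ubiquitin ligase of damage tolerance, 6.14, 6.66, 6.93 and 6.79 (-0.65, adjusted p = 0.253). In these 3 tumor 1 lay below the rest. Uvssa, of transcription-coupled repair, read 6.09, 6.80, 5.87 and 5.43, and Neil3, a glycosylase of replicating cells, 6.38, 7.11, 6.58 and 6.08. Both were highest in tumor 2 and lowest in tumor 5, with tumor 1 between.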

How the data were processed

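Total RNA of 4 tumors was measured on 1 array each. The authors deposited log2 signals made with MAS5, per the submitters' processing notes. MAS5 summarizes each array on its own and does not align arrays with each other, so scaling can move small differences. Its scaling target is not given in the sources used here. The table used here held 29304 probe sets without detection calls. Of these, 61 were controls, 24679 had 1 gene symbol in the platform annotation, 647 several and 3917 none, and only the first kind was named. The number of arrays limits the precision.

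Signals were raised to the floor, the filter used the mean as deposited, and the brightest probe set stood for its gene. The contrasts were fitted over all genes (R 4.3.3, limma 3.58.1, lmFit and eBayes with an intensity trend), after the code was tested on simulated data. Differences are on the floored log2 scale. Nothing used here says whether a tumor number also marks a litter or batch. Alternatives were other floors, filters, scalings and probe set rules, no trend, and each tumor left out.

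Members and lists were chosen with earlier results of these data known. Values per tumor are given for the 2 widest and the narrowest genes of each role, the 5 with the largest SD, genes whose probe sets opposed each other by 0.3 or more, and genes below the filter. Among the other repair genes they are given for the 5 with the largest SD. Atr, Mcm2, Pax6, Zic2, Slc32a1 and second probe sets were added after their values were seen.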

Additional observations from a re-analysis of the deposited data

Results flagged for a closer look

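In 2 of the 33 tested repair genes, 1 tumor stood far from the other 3, judged by the gap to its nearest neighbour over the whole range of the 4 tumors. For Ung this ratio was 0.946, with tumor 1 at 8.11 and the others between 8.66 and 8.70. For Rad51c it was 0.85, with tumor 1 at 5.97 and the others between 6.59 and 6.70. Both exceed Dixon's critical value for 4 samples, which chance passes in about 1 group in 20. The ratio passed it in 450 of all 8498 genes tested (5.3%), so 2 of 33 is near the background and is no result about the repair genes as a group.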

How the results depend on the processing

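No repair gene was called in any tumor under any alternative, and 363 recomputed single-gene differences in tumor 1 kept their sign and side of the threshold. The 6 others, which turned, were near 0: Lig3 with the mean of probe sets (-0.00017), Xrcc1 with arrays centred on their medians (-0.0032), and Xrcc4 with quantile normalization (-0.069), with centred arrays (-0.0095), without tumor 2 (-0.015) and without tumor 4 (-0.020, against 0.093 without tumor 5). A filter at the 75th percentile left 8 repair genes: tumor 1 was lowest in 5, tumor 2 highest in 1, tumor 5 highest in 3, and their median SD was 0.117. Leaving out 1 tumor at a time, tumor 1 was lowest in 25 to 28 genes, tumor 2 highest in 14 to 20 (20 without tumor 5), tumor 5 highest in 13 to 19 (19 without tumor 2), and the median SD lay between 0.102 (without tumor 1) and 0.239. The median difference in tumor 1 then lay between -0.36 and -0.30. Each of 3 tumors is lowest or highest more often than each of 4, so these counts are not comparable with those over 4 tumors. No share of all genes stands beside them or the counts under the 75th percentile filter, so they are no result about the repair genes. Over all genes, 110 calls in tumor 1 became 57 with the floor at the 50th percentile, 29 under the stricter filter, and 177 to 208 with a tumor left out. Tumors 2, 4 and 5, with 0 calls each, gave 1, 5 and 6 with no filter, and 0 to 29, 1 to 7 and 1 to 47 with a tumor left out, most without tumor 1. The stricter filter gave 1 in tumor 2. The causes were not tested. Signal near the floor limits Rad52, Xrcc3, Wrn, Xpc and 4 Fanconi genes. No paired analysis was possible because the labels give a single group.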
